A study of Homo sapiens with 18 samples.

Results

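The genes described here are PCK2 and 9 genes that are known targets of the transcription factor ATF4 or markers of the amino acid response: ASNS, PSAT1, PHGDH, TRIB3, CHAC1, SESN2, DDIT4, DDIT3 and ATF3. They are 10 of the 58676 Ensembl IDs in the count table, taken by ID. The set was chosen by known biology and by measured values: PCK2 was selected on its lower level in SBP2 inputs than in control inputs. That contrast is therefore given as a description, with no p-value, and nothing is read from the counts past a threshold in it. RNA was measured by RNA immunoprecipitation sequencing (RIP-seq), which reads the RNA recovered with a tagged protein (RIP) and the RNA of the lysate before precipitation (input). Human HEK 293T cells, an embryonic kidney line that takes up plasmids readily, were transiently transfected with Flag-SBP2, with Flag-SBP2 followed by 100 nM sodium selenite added 4 h later (SBP2(Se)), or with the Flag vector (control), and lysed at 48 h. The growth protocol names the parent line, without the T. SBP2 binds the SECIS structures of selenoprotein mRNAs, which direct selenocysteine insertion, and here it was overexpressed as a tagged protein. Each of the 3 treatments had 3 biological replicates, each with a RIP and an input library, which made 6 groups and 18 libraries. The input was a part of each lysate set aside before the beads were added. Flag vector cells with selenite were not analysed here, so selenite is compared only between cells that both carried Flag-SBP2.

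ATF4 is translated when stress kinases phosphorylate the initiation factor eIF2, for example when uncharged tRNA accumulates and activates GCN2. It then pairs with other basic leucine zipper proteins at C/EBP-ATF response elements and raises the transcription of enzymes that make amino acids, of amino acid transporters, and of regulators that slow growth or shape the stress response. PHGDH, PSAT1 and ASNS belong to the enzymes that make amino acids, and PCK2 is an enzyme that makes phosphoenolpyruvate. CHAC1, DDIT4, SESN2 and TRIB3 belong to the regulators, and DDIT3 (CHOP) and ATF3 are transcription factors that act downstream of ATF4.

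The loci below are those of RefSeq on GRCh38.p14, matched by symbol. PCK2 (ENSG00000100889) lies at chr14:24094171-24104125, PSAT1 (ENSG00000135069) at chr9:78297125-78330093, and PHGDH (ENSG00000092621) at chr1:119711934-119744215. ASNS (ENSG00000070669) lies at chr7:97851677-97928441, CHAC1 (ENSG00000128965) at chr15:40953471-40956512, and DDIT4 (ENSG00000168209) at chr10:72273924-72276036. SESN2 (ENSG00000130766) lies at chr1:28259518-28282491 and TRIB3 (ENSG00000101255) at chr20:380760-397559. DDIT3 (ENSG00000175197) lies at chr12:57516588-57520517 and ATF3 (ENSG00000162772) at chr1:212565407-212620777. The other 7 genes overlap no other RefSeq gene, while PCK2, ASNS and DDIT3 do. The whole PCK2 span lies inside that of NRL, and ASNS shares 76325 bases with the readthrough gene CZ1P-ASNS. DDIT3 shares 65 bases with MARS1 and 2769 with LOC128125814. The sources used here do not give the strand setting or the handling of reads that match several genes, so the counts of these 3 genes are uncertain. The ID of ASNS held only 1 to 29 counts per library, and its values are given with that limit. Whether reads of ASNS were left out of its count was not tested.

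Promoter windows from RefSeq (GRCh38.p14, 250 bases before to 50 after the gene start) were found for 10 of 10 genes, as 15 entries. In these windows 2 motifs were searched on both strands. TGATGNAA, the core letters of a C/EBP-ATF response element, occurred in 1 window each of 3 genes (ASNS, CHAC1 and ATF3), so in 3 of the 15 windows. It occurred in 3.62% of 35116 promoter windows of the same length. TGACGTCA, the cAMP response element, occurred in 0 of the 10 genes and in 1.85% of all windows. The 250 bases before the start used by the promoter table are shown for the 3 genes with a match, for PCK2, whose lower input level placed it in this group, and for DDIT3, whose recovery with SBP2 differed from that with the control. That start need not be the end of the gene span given above: the bases shown lie wholly inside the span for ASNS, run into it for PCK2, and reach its first bases for DDIT3. Capitals mark the match, and the strand given is that of the gene.
CHAC1, chr15:40953221-40953470, plus strand: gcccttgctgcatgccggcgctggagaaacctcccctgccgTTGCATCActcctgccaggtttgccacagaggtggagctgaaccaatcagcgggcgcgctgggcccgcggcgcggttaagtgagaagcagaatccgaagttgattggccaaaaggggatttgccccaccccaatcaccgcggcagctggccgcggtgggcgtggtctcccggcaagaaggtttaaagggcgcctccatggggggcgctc
ASNS, chr7:97872409-97872658, minus strand: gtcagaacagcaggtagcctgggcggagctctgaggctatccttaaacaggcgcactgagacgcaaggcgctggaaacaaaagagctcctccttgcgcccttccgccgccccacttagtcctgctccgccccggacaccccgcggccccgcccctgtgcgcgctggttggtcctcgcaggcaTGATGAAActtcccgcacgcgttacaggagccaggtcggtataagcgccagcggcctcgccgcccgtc
ATF3, chr1:212565157-212565406, plus strand: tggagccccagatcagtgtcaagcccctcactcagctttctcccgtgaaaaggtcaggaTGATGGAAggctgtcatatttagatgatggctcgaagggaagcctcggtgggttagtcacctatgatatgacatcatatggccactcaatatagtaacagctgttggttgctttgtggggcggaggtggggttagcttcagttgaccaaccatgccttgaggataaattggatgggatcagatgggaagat
PCK2, chr14:24094061-24094310, plus strand: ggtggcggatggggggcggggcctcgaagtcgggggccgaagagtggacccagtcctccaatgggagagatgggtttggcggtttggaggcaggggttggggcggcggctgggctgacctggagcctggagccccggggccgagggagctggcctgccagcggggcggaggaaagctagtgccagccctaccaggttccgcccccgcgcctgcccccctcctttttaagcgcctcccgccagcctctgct
DDIT3, chr12:57520515-57520764, minus strand: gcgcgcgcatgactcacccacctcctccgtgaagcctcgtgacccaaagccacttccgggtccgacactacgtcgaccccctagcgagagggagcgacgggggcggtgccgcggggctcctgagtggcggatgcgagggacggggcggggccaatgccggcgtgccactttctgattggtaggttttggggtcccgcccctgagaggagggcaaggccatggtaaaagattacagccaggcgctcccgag
A match is a description of these letters, and no match says only that the letters are not in the window searched.

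Libraries held 15162472 to 29887524 counts, and levels below are CPM (counts scaled to a common library total) after TMM normalization over all 18 libraries. The third control lysate stood apart in these genes. Its input was the highest of the 3 control inputs for 9 of the 10 genes, where 37.3% of 17678 tested IDs were highest in it, and its RIP was the highest of the 3 control RIPs for 9 genes, where 32.6% of IDs were. Relative to the mean of its group on the log2 scale, the median gene lay at 0.48 in the control input of replicate 3 and at 0.40 in its RIP. Replicates differed inside the SBP2(Se) group too: replicate 1 was the highest of 3 RIPs for 10 of 10 genes (36.3% of IDs) and of 3 inputs for 7 genes (36.4% of IDs). Replicate 2 was the highest for 0 of the 10 genes in either fraction there, where 26% of IDs in inputs and 30.1% in RIPs were highest in it. Input and RIP of a lysate come from the same cells. In RNA from a dish, fewer cells with a response and less RNA per cell cannot be told apart. The part of this lysate in the differences from the control was not tested beyond the values given without it.

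**Figure D1:**
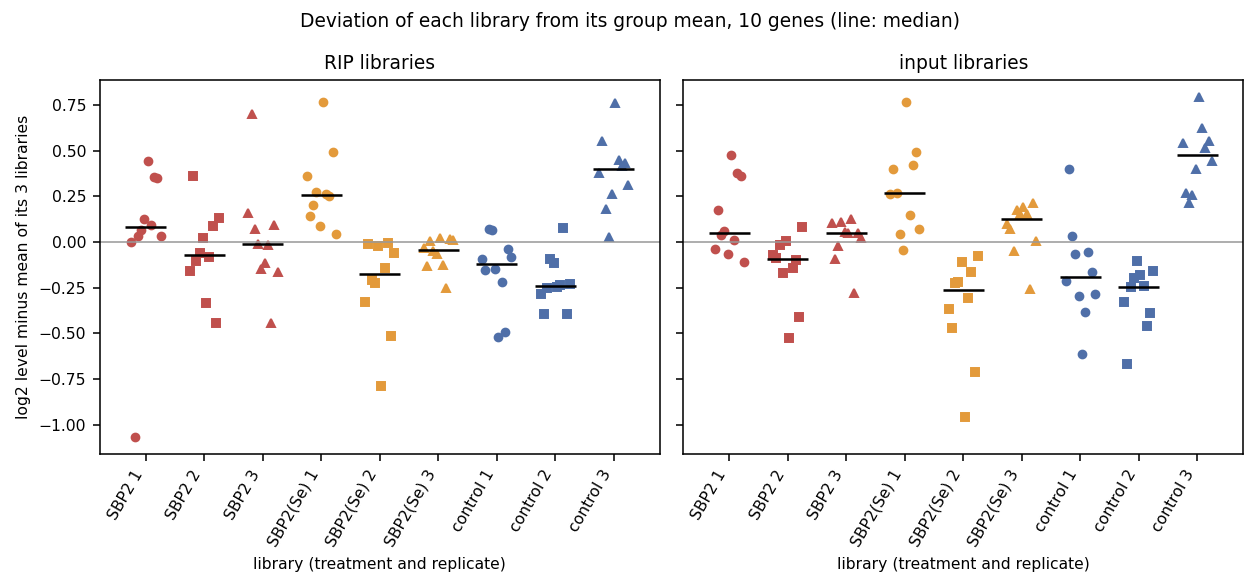
Log2 level of each of the 10 genes minus the mean of its 3 libraries, by library, in RIP libraries (left) and inputs (right), with the median as a line. All 10 genes lie above 0 in control replicate 3 in both fractions, with medians of 0.40 in the RIP and 0.48 in the input.

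Between RIP libraries, which did not enter the choice of PCK2 although they come from the same lysates, PCK2, PSAT1, DDIT4 and ASNS were lower with SBP2 than in the control and DDIT3 was higher. With SBP2(Se), PCK2, PSAT1, DDIT4 and CHAC1 were lower and DDIT3 was higher. In counts, 4 of the 10 genes fell and 1 rose in SBP2 RIP by edgeR's test over all IDs, where 30.6% of IDs were lower and 31.6% higher. In SBP2(Se) RIP 4 fell and 1 rose, where 28.1% of IDs were lower and 29.5% higher. The share of lower genes was a little above the background, and that of higher genes was below it. With 10 genes nothing is read from either. The median log2 change of the 10 genes was -0.27 in SBP2 RIP and -0.32 in SBP2(Se) RIP, against 0.0041 and 0.014 over all IDs. Without control replicate 3 the medians of the 10 genes were -0.12 and -0.24. Both comparisons use the same 3 control RIPs. Without control replicate 3, ASNS with SBP2 (edgeR adjusted p = 0.105) and CHAC1 with SBP2(Se) (edgeR adjusted p = 0.252) no longer passed.

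Between inputs, which hold the contrast that placed PCK2 among these genes, values are given as a description. All 3 SBP2 inputs lay below all 3 control inputs for 6 of the 10 genes (PCK2, PSAT1, PHGDH, CHAC1, SESN2 and DDIT4), as they did for 13.1% of all IDs. The same 6 genes lay below the control in all 3 SBP2(Se) inputs, as did 8.58% of IDs. TRIB3, DDIT3, ATF3 and ASNS overlapped the control in both. PCK2 and PSAT1, 2 of the 10 genes, were past the edgeR threshold in each of these comparisons, beside 0.879% of IDs with SBP2 and 0.554% with SBP2(Se). The choice of PCK2 bears on this count, and without control replicate 3 it was 0 in both. It was also 0 without any 1 of the SBP2 replicates, and 0 to 1 without any 1 of the SBP2(Se) replicates. With the replicate number as a block, SBP2(Se) inputs had 6 genes past it, beside 6.8% of IDs. The choice of PCK2 bears on this count too, and nothing is read from either. The median log2 difference of the 10 genes was -0.52 with SBP2 and -0.66 with SBP2(Se), against -0.0085 and -0.016 over all IDs. The medians of the 10 genes were -0.23 and -0.39 once control replicate 3 was left out.

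**Figure D2:**
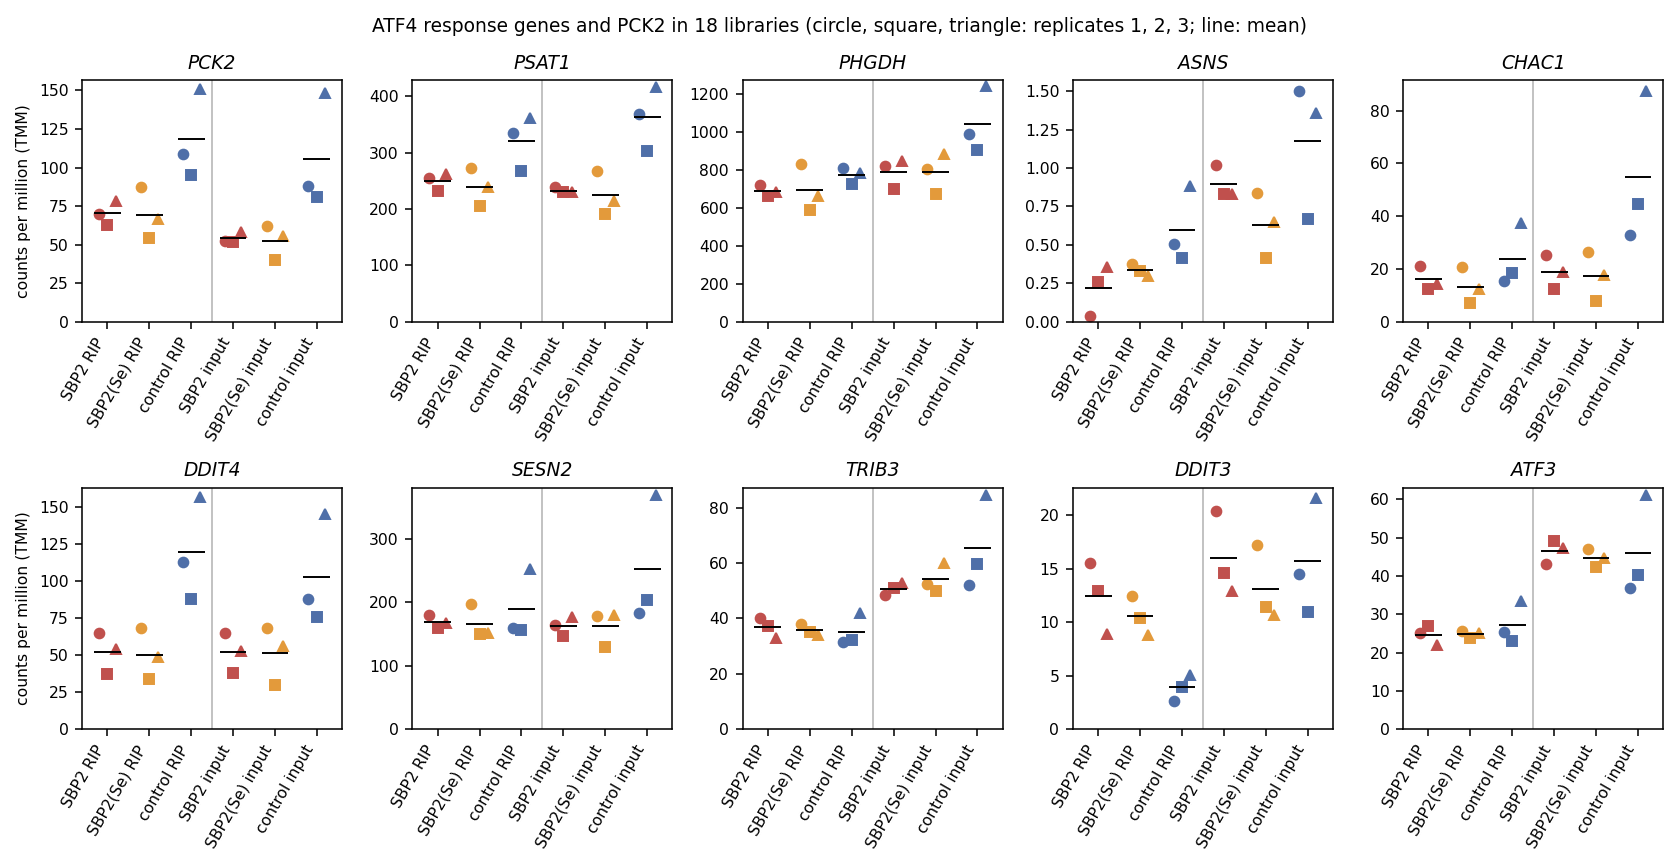
Level of each gene in CPM in the 18 libraries, RIP left of input, with SBP2, SBP2(Se) and control in each. Points are libraries and lines are group means of 3. PCK2, PSAT1 and DDIT4 are lower with SBP2 in both fractions, while DDIT3 is higher with SBP2 in RIP and overlaps the control in input.

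Among the enzymes, PCK2, the mitochondrial phosphoenolpyruvate carboxykinase that makes phosphoenolpyruvate from oxaloacetate, had 52.6, 51.5 and 58.1 CPM in SBP2 inputs and 62.1, 40.0 and 55.4 CPM in SBP2(Se) inputs, against 87.8, 81.2 and 148 CPM in control inputs. The groups did not overlap. The log2 difference was -0.96 (SE 0.198) with SBP2 and -1.01 (SE 0.198) with SBP2(Se), and -0.62 and -0.66 without control replicate 3. As a description, the value with SBP2 lay above only 0.506% of tested IDs and that with SBP2(Se) above 0.223%.

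In RIP libraries PCK2 had 70.1, 62.8 and 78.4 CPM with SBP2 and 87.3, 54.1 and 66.4 CPM with SBP2(Se), against 109, 95.2 and 151 CPM in the control. Again no library of either SBP2 group reached the lowest control. PCK2 fell by 0.76 on the log2 scale with SBP2 (SE 0.14, edgeR adjusted p = 4.90e-05) and by 0.79 with SBP2(Se) (SE 0.14, edgeR adjusted p = 3.67e-05). Without control replicate 3 it fell by 0.54 and by 0.56 (edgeR adjusted p = 0.000833 and 0.000659).

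Recovery of PCK2 is given as a description. Its log2 ratio of RIP to input in the same lysate was 0.41, 0.29 and 0.43 in SBP2 lysates and 0.49, 0.43 and 0.26 in SBP2(Se) lysates, against 0.31, 0.23 and 0.03 in control lysates. The SBP2(Se) and control ratios overlapped, as did SBP2 and control, and all 9 were above 0. The enrichment over the control is the difference of these ratios in the fit. It was 0.22 with SBP2 (SE 0.277) and 0.24 with SBP2(Se) (SE 0.277). The inputs that chose PCK2 enter this difference, so it has no p-value here and nothing on recovery is read from it.

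PSAT1, the phosphoserine aminotransferase of serine synthesis, had 239, 230.4 and 229.6 CPM in SBP2 inputs and 268, 191 and 215 CPM in SBP2(Se) inputs, against 369.6, 304 and 417 CPM in control inputs. Every SBP2 and SBP2(Se) input was below every control input. The log2 difference of PSAT1 was -0.64 with SBP2 and -0.69 with SBP2(Se), and -0.50 and -0.55 without control replicate 3. In RIP it had 255, 233 and 263 CPM with SBP2 and 274, 206 and 239 CPM with SBP2(Se), against 335, 268 and 361 CPM in the control. In RIP the SBP2 libraries were all below the control and the SBP2(Se) libraries overlapped it. PSAT1 fell by 0.37 in SBP2 RIP (SE 0.0974, edgeR adjusted p = 0.002) and by 0.44 in SBP2(Se) RIP (SE 0.0976, edgeR adjusted p = 0.00045). It also passed in both without control replicate 3 (edgeR adjusted p = 0.0211 and 0.00645).

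PHGDH, the dehydrogenase that opens the serine pathway from phosphoglycerate, was the other serine gene and moved less. It had 817, 696 and 843 CPM in SBP2 inputs and 805, 672 and 882 CPM in SBP2(Se) inputs, against 987, 902 and 1237 CPM in control inputs. The log2 difference was -0.40 in each (SE 0.125), and -0.24 in each without control replicate 3. In RIP it had 721, 659.7 and 683 CPM with SBP2 and 829.6, 587 and 662 CPM with SBP2(Se), against 807, 722 and 785 CPM in the control. All SBP2 libraries lay below the control, but the SBP2(Se) libraries did not. Those changes, of -0.17 with SBP2 (SE 0.091) and -0.17 with SBP2(Se) (SE 0.091), did not pass (edgeR adjusted p = 0.103 and 0.117). PHGDH did pass in some other settings. Without SBP2(Se) replicate 1, it passed with SBP2(Se) (log2 change -0.32, edgeR adjusted p = 0.00121). With the replicate number as a block, it passed with SBP2 and with SBP2(Se) (edgeR adjusted p = 0.0308 and 0.0266).

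ASNS, which makes asparagine from aspartate and glutamine, rested on few counts. Its ID held 1, 7 and 10 counts in SBP2 RIP and 9, 9 and 6 in SBP2(Se) RIP, against 15, 11 and 29 in control RIP. Inputs held 15, 14 and 18 counts with SBP2 and 15, 7 and 12 with SBP2(Se), against 21, 12 and 27 in the control. It fell by 1.43 in SBP2 RIP (SE 0.469, edgeR adjusted p = 0.0105), but did not pass without SBP2 replicate 1, which held 1 count (edgeR adjusted p = 0.0692), nor in SBP2(Se) RIP (log2 change -0.86, SE 0.444, edgeR adjusted p = 0.103).

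Among the regulators, DDIT4 (REDD1), an inhibitor of mTORC1 signalling, differed most in RIP. It had 65.2, 37.6 and 54.5 CPM in SBP2 RIP and 68.2, 33.9 and 49.1 CPM in SBP2(Se) RIP, against 113, 88.4 and 157 CPM in control RIP. The ranges did not overlap. DDIT4 fell by 1.20 with SBP2 (SE 0.194, edgeR adjusted p = 8.97e-06) and fell by 1.27 with SBP2(Se) (SE 0.195, edgeR adjusted p = 5.72e-06), and by 0.95 and 1.01 without control replicate 3 (edgeR adjusted p = 0.000149 and 9.65e-05).

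In inputs DDIT4 had 65.3, 38.3 and 52.6 CPM with SBP2 and 68.6, 29.7 and 56.4 CPM with SBP2(Se), against 88.4, 75.8 and 145 CPM in the control. These levels did not overlap either, and replicate 2 was the lowest in each group. The log2 difference was -0.98 with SBP2 (SE 0.276) and its level with SBP2(Se) was 0.501 times that of the control. Without control replicate 3 the log2 differences were -0.63 and -0.64. All 3 of its SBP2 ratios of RIP to input lay below the control ratios, but its enrichment over the control did not pass with SBP2 (log2 -0.20, SE 0.392, edgeR adjusted p = 0.729) or with SBP2(Se) (log2 -0.25, SE 0.393, edgeR adjusted p = 0.675).

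CHAC1, the gamma-glutamyl cyclotransferase that degrades glutathione, also varied between replicates. Its inputs held 25.2, 12.6 and 18.7 CPM with SBP2 and 26.5, 7.96 and 17.8 CPM with SBP2(Se), against 32.9, 44.6 and 87.5 CPM in the control. All SBP2 and SBP2(Se) values were below the lowest control. Its log2 difference was -1.55 with SBP2 (SE 0.378) and -1.65 with SBP2(Se) (SE 0.379), and with SBP2(Se) no tested ID had a lower value. Without control replicate 3 these were -1.03 and -1.12.

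In RIP CHAC1 had 21.3, 12.4 and 14.4 CPM with SBP2 and 20.6, 6.94 and 12.2 CPM with SBP2(Se), against 15.3, 18.5 and 37.3 CPM in the control. Both SBP2 groups overlapped the control. It fell by 0.87 with SBP2(Se) (SE 0.283, edgeR adjusted p = 0.0113), but this was lost when control replicate 3 or SBP2(Se) replicate 2 was left out (edgeR adjusted p = 0.252 and 0.105). The DESeq2 test and a fit over 18 libraries did not call CHAC1 with SBP2(Se) either. With SBP2 the change was -0.58 (SE 0.276, edgeR adjusted p = 0.07), and it was -0.086 without control replicate 3 (edgeR adjusted p = 0.793). It passed with SBP2 without control replicate 1, control replicate 2 or SBP2 replicate 1 (edgeR adjusted p = 0.0175, 0.0341 and 0.0185). Its RIP-to-input ratios were -0.24, -0.02 and -0.38 in SBP2 lysates and -0.36, -0.20 and -0.54 in SBP2(Se) lysates, against -1.10, -1.26 and -1.23 in control lysates, on the log2 scale. Every SBP2 and SBP2(Se) ratio was above every control ratio. The enrichment over the control was 0.99 with SBP2 (SE 0.549, edgeR adjusted p = 0.163) and 0.81 with SBP2(Se) (SE 0.555, edgeR adjusted p = 0.285). With the lysate as a block both passed, at 0.98 and 0.82 (edgeR adjusted p = 1.38e-05 and 0.000156).

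SESN2, a leucine sensor that restrains mTORC1, had 164, 147 and 177 CPM in SBP2 inputs and 178, 130.3 and 179 CPM in SBP2(Se) inputs, against 184, 203 and 369 CPM in control inputs. The highest SBP2(Se) input was close to the lowest control. The log2 difference was -0.63 with SBP2 and with SBP2(Se) (SE 0.205 each), and -0.23 and -0.22 without control replicate 3. In RIP it had 180.2, 159 and 167 CPM with SBP2 and 198, 149.7 and 151 CPM with SBP2(Se), against 159, 157 and 253 CPM in the control. Those ranges overlapped, and the changes of -0.18 with SBP2 (SE 0.129) and -0.20 with SBP2(Se) (SE 0.13) did not pass (edgeR adjusted p = 0.242 and 0.185). Leaving out control replicate 3 gave 0.089 and 0.07. SESN2 passed with SBP2(Se) without control replicate 2 or without SBP2(Se) replicate 1 (edgeR adjusted p = 0.0466 and 0.0257).

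TRIB3, a pseudokinase that binds ATF4 and AKT, had 40.0, 37.3 and 33.1 CPM in SBP2 RIP and 37.8, 35.2 and 34.1 CPM in SBP2(Se) RIP, against 31.5, 32.2 and 42.0 CPM in control RIP. The groups overlapped, and neither the change with SBP2 (0.05, edgeR adjusted p = 0.689) nor that with SBP2(Se) (0.0021, edgeR adjusted p = 0.987) passed. In inputs it had 48.5, 51.0 and 52.8 CPM with SBP2 and 52.4, 50.0 and 60.2 CPM with SBP2(Se), against 52.1, 59.7 and 84.6 CPM in the control. The log2 difference was -0.36 with SBP2 and -0.27 with SBP2(Se), and -0.12 and -0.017 without control replicate 3. TRIB3 was lower in RIP than in input in each treatment: it fell by 0.47 in SBP2 lysates (SE 0.136, edgeR adjusted p = 0.00456), by 0.60 in SBP2(Se) lysates (SE 0.136, edgeR adjusted p = 0.000454) and by 0.90 in control lysates (SE 0.135, edgeR adjusted p = 2.11e-06). Without SBP2 replicate 3 the change in SBP2 lysates did not pass (edgeR adjusted p = 0.0747).

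Among the transcription factors, DDIT3, which encodes CHOP, went the other way from PCK2 in RIP and not in input. It had 15.6, 12.9 and 8.89 CPM in SBP2 RIP and 12.5, 10.4 and 8.77 CPM in SBP2(Se) RIP, against 2.66, 3.98 and 5.07 CPM in control RIP. The lowest library of each SBP2 group was above the highest control. Its counts were 386, 345 and 251 in SBP2 RIP and 297, 283 and 177 in SBP2(Se) RIP, against 79, 106 and 167 in control RIP. DDIT3 rose by 1.65 in SBP2 RIP on the log2 scale, a 3.14-fold change (SE 0.197, edgeR adjusted p = 9.82e-08), and by 1.42 in SBP2(Se) RIP, a 2.67-fold change (SE 0.2, edgeR adjusted p = 1.65e-06).

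In inputs DDIT3 had 20.4, 14.6 and 12.9 CPM with SBP2 and 17.2, 11.4 and 10.7 CPM with SBP2(Se), against 14.5, 10.99 and 21.6 CPM in the control. These overlapped, with log2 differences of 0.016 (SE 0.239) and -0.26 (SE 0.241), which were 0.35 and 0.075 without control replicate 3. Its RIP-to-input ratio was -0.39, -0.18 and -0.53 in SBP2 lysates and -0.46, -0.13 and -0.29 in SBP2(Se) lysates, against -2.41, -1.44 and -2.07 in control lysates. All 9 ratios were below 0, and those with SBP2 were nearer to 0. The enrichment over the control was 1.65 with SBP2 (SE 0.352, edgeR adjusted p = 0.000501) and 1.70 with SBP2(Se) (SE 0.357, edgeR adjusted p = 0.000531), above that of 95.7% and 96.9% of tested IDs.

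ATF3, a stress-induced factor that represses or activates its targets by partner, had 25.2, 27.0 and 22.0 CPM in SBP2 RIP and 25.7, 23.9 and 25.1 CPM in SBP2(Se) RIP, against 25.4, 23.0 and 33.5 CPM in control RIP. Neither the change with SBP2 (-0.16, edgeR adjusted p = 0.232) nor that with SBP2(Se) (-0.15, edgeR adjusted p = 0.264) passed, although that with SBP2 did without control replicate 2 (-0.26, edgeR adjusted p = 0.045). Its inputs held 43.1, 49.2 and 47.3 CPM with SBP2 and 46.9, 42.3 and 44.8 CPM with SBP2(Se), against 36.9, 40.2 and 61.1 CPM in the control. The log2 difference was 0.018 with SBP2 and -0.044 with SBP2(Se). Without control replicate 3 both lay above 0, at 0.30 and 0.24. RIP and input did not overlap in any treatment: ATF3 fell by 0.92 in SBP2 lysates (SE 0.147, edgeR adjusted p = 6.82e-06), by 0.84 in SBP2(Se) lysates (SE 0.147, edgeR adjusted p = 2.22e-05) and by 0.76 in control lysates (SE 0.145, edgeR adjusted p = 5.43e-05).

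**Figure D3:**
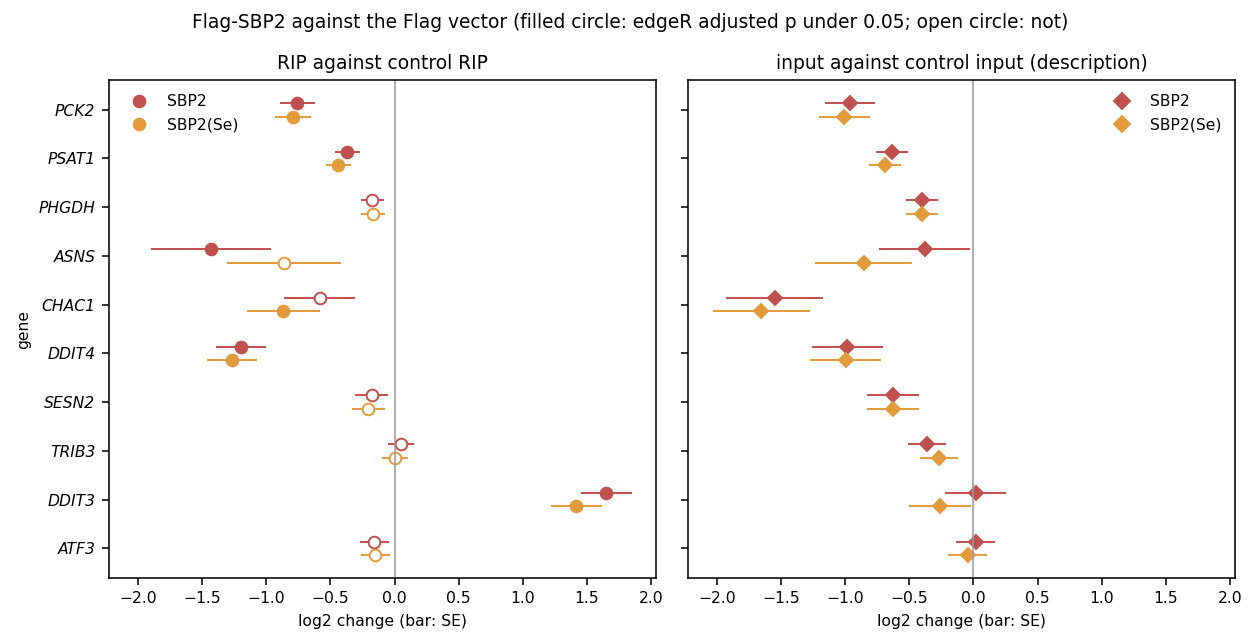
Log2 change against the control of each gene in RIP (left; filled where the edgeR adjusted p is under 0.05) and in input (right; a description), with SE bars, for SBP2 and SBP2(Se). PCK2 lies at -0.76 and -0.79 in RIP and at -0.96 and -1.01 in input, while DDIT3 lies at 1.65 and 1.42 in RIP and at 0.016 and -0.26 in input.

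RIP against input asked how these RNAs were recovered relative to other RNAs. With SBP2, 3 of the 10 genes were lower in RIP than in input (TRIB3, ATF3 and ASNS), where 31.7% of IDs were. With SBP2(Se) 2 were lower (TRIB3 and ATF3), where 31.6% of IDs were. In the control 6 were lower (DDIT3, CHAC1, TRIB3, ATF3, PHGDH and ASNS), where 39.8% of IDs were. The median log2 change of the 10 genes was -0.21 with SBP2, -0.25 with SBP2(Se) and -0.60 in the control, against -0.016, -0.0046 and -0.13 over all IDs. In control lysates DDIT3 fell by 2.01 (SE 0.26, edgeR adjusted p = 1.88e-07) and CHAC1 fell by 1.22 (SE 0.378, edgeR adjusted p = 0.00606). In the control, ASNS did not pass without control replicate 1 (edgeR adjusted p = 0.276), nor PHGDH without control replicate 3 (edgeR adjusted p = 0.0749). The 6 genes became 4 with library size alone, where ASNS and PHGDH did not pass (edgeR adjusted p = 0.0867 and 0.0547). They became 4 by DESeq2, where ASNS and CHAC1 did not pass (DESeq2 adjusted p = 0.0739 and 0.0573). These 2 settings called 12552 and 12417 of 17678 IDs in either direction. ASNS also missed the threshold with DESeq2 size factors and with no low-count filter (edgeR adjusted p = 0.0601 and 0.101). With the lysate as a block, 5 genes passed with SBP2 (63.6% of IDs), 4 with SBP2(Se) (63.7%) and 10 in the control (72.2%). PCK2 was among these in each, higher in RIP than in input by 0.38 with SBP2, 0.40 with SBP2(Se) and 0.19 in the control. The inputs that chose PCK2 enter these changes, which are therefore given as a description.

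The enrichment over the control asked whether recovery relative to other RNAs was higher with SBP2 than with the Flag vector. Each library was scaled to a common total, so amounts of RNA recovered were not compared. DDIT3 was the 1 gene of 10 that passed without selenite, where 21.7% of IDs were enriched, and the 1 gene that passed with it, where 19.3% were. The median enrichment of the 10 genes was 0.26 in both, against 0.022 and 0.026 over all IDs. It was 0.17 with SBP2 without control replicate 3, and 0.11 with SBP2 and 0.13 with SBP2(Se) under library size alone, where the medians over all IDs were -0.13 and -0.10. The 2 comparisons share the control lysates. With the lysate as a block 5 genes were enriched with SBP2 (PSAT1, TRIB3, CHAC1, SESN2 and DDIT3), beside 22.8% of IDs, and 4 with SBP2(Se) (PSAT1, CHAC1, SESN2 and DDIT3), beside 20.5%. TRIB3 with SBP2 also passed without control replicate 1 (edgeR adjusted p = 0.0423).

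**Figure D4:**
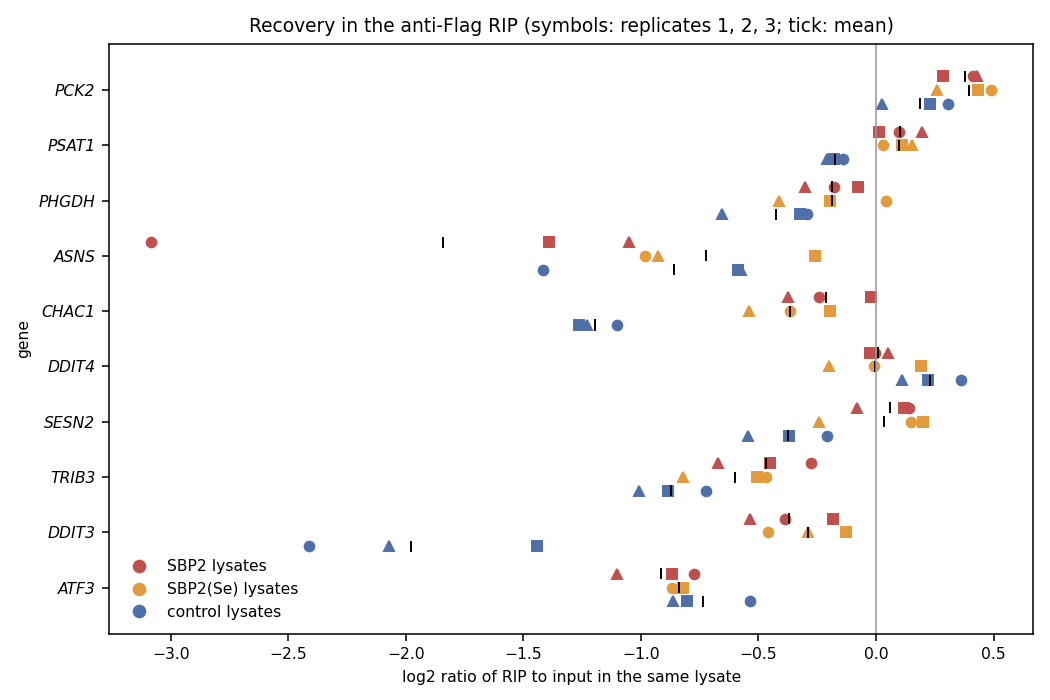
Log2 ratio of RIP to input in each lysate for the 10 genes, with SBP2 above SBP2(Se) and control in each row. Symbols are replicates and ticks are means of 3. DDIT3 averages -0.37 with SBP2, -0.29 with SBP2(Se) and -1.98 in the control, and CHAC1 averages -0.21, -0.37 and -1.20.

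Selenite was compared between cells that both carried Flag-SBP2. By edgeR 0 of the 10 genes differed between SBP2(Se) and SBP2 inputs, where 0.00602% of IDs did, and 0 had an unadjusted p under 0.05. DESeq2 and limma voom called 0 of them, as did edgeR with the replicate number as a block. The log2 changes ran from -0.48 (ASNS, SE 0.389) to 0.094 (TRIB3, SE 0.148), and that of PCK2 was -0.044 (SE 0.198). In recovery with SBP2, 0 genes differed with selenite by edgeR, DESeq2 or limma voom, where 0% of IDs did by edgeR, and 0 had an unadjusted edgeR p under 0.05. The difference for DDIT3 was 0.047 (SE 0.342) and that for PCK2 0.017 (SE 0.28). A p that misses the threshold does not show that selenite left these genes alike.

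As a description over the 9 inputs, PSAT1 was the other gene here whose log2 CPM was most like that of PCK2, with Pearson's r = 0.958, which ranked 12 among 13424 IDs (those whose log2 CPM averaged at least 1). PHGDH (r = 0.943), SESN2 (r = 0.942), CHAC1 (r = 0.941) and DDIT4 (r = 0.936) followed, while DDIT3 (r = 0.445) and ATF3 (r = 0.393) were less alike. The most similar IDs of all were ENSG00000166986 (r = 0.98) and ENSG00000157514 (r = 0.979), which the files do not name. These points share their treatment groups and the high control replicate 3. When levels were taken relative to their group means, PSAT1 was no longer the most alike. There r was 0.952 for SESN2, 0.871 for PHGDH, 0.862 for DDIT4 and 0.844 for ATF3. It was 0.838 for CHAC1, 0.837 for PSAT1, 0.803 for TRIB3, 0.67 for DDIT3 and 0.629 for ASNS.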

How the data were processed

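The authors deposited whole-number counts per Ensembl gene ID for 18 libraries. The submitters' processing notes name Trim Galore 0.6.6, STAR 2.7.6a and featureCounts 2.0.1 with GRCh38 (hg38). The sources used here give no annotation or strand setting. Libraries held 15162472 to 29887524 counts, and no pair of replicates looked like 1 library deposited again (ratio of chi-square to its degrees of freedom 5.1 to 29.5). The series calls the replicates biological, and p-values cover the spread between these samples. Samples were grouped by title.

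From the counts, IDs were filtered with filterByExpr (minimum count 10, minimum total 15), which kept 10 of 10 genes, scaled by TMM, and tested with edgeR 4.0.16 (R 4.3.3, two-sided quasi-likelihood test). Benjamini-Hochberg adjustment ran over all IDs tested, with a threshold of 0.05. RIP-to-input comparisons and enrichments used 18 libraries, and others the 9 RIP libraries or the 9 inputs. Ratios of single lysates used log2 CPM with a prior count of 2. Standard errors came from the test statistic. DESeq2 1.42.0, limma 3.58.1 and other filters and scalings were alternatives.

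All 10 genes are described, and were named by the rule that gave their IDs. The genes, lists and tests were chosen with earlier results of these data known. Only 0 of 59792 genes in the reference table carry an Ensembl ID, so the lists of other ATF4 targets, stress signalling and gluconeogenesis genes, the cell type markers and the gene that encodes SBP2 were not analysed here by name.

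Input and RIP of a lysate are pairs, since the labels' protocols draw the input from the same sample. Their correlations of deviations from group means were only 0.0012 to 0.195. The main tests used no block, so their p-values leave this pairing out. It entered the ratios of single lysates and the block setting. Same-numbered inputs correlated at 0.129 to 0.314 between SBP2(Se) and control and at 0.11 to 0.189 between SBP2(Se) and SBP2. These numbers were therefore taken as pairs (limit 0.1), but the main tests used no block here either.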

Additional observations from a re-analysis of the deposited data

Results flagged for a closer look

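Recovery of DDIT3 differed between SBP2 and control lysates, and that of PSAT1 pointed opposite ways in them under TMM. DDIT3 was enriched over the control by 1.65 on the log2 scale with SBP2 and by 1.70 with SBP2(Se), by the test of the difference itself (edgeR adjusted p = 0.000501 and 0.000531). Under TMM PSAT1 lay on opposite sides of its input. The RIP-to-input ratios were above 0 in 3 of 3 SBP2 lysates and 3 of 3 SBP2(Se) lysates, and below 0 in 3 of 3 control lysates. The side of 0 in the control depended on the scaling. PSAT1 changed there by -0.18 under TMM and by 0.011 with library size alone. Under TMM PSAT1 did not pass in RIP against input with SBP2, with SBP2(Se) or in the control (edgeR adjusted p = 0.493, 0.544 and 0.211). Its enrichment was 0.28 with SBP2 and 0.27 with SBP2(Se), and the test of this difference did not pass (edgeR adjusted p = 0.225 and 0.266). With the lysate as a block it was 0.28 and 0.27 and passed (edgeR adjusted p = 0.0271 and 0.0341). Groups of 3 libraries were too small for a test of single outlying values.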

How the results depend on the processing

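Counts of the 10 genes past the threshold moved most with a block or without a low-count filter. With the replicate block (the lysate, or the replicate number within 1 fraction), RIP against input gave 5 genes with SBP2 (3 without it), 4 with SBP2(Se) (2) and 10 in the control (6, which became 4 with library size alone and by the DESeq2 test). Enrichment over the control gave 5 with SBP2 (1) and 4 with SBP2(Se) (1), and inputs against control inputs 7 with SBP2 (2) and 6 with SBP2(Se) (2), where counts between inputs are descriptions since PCK2 was chosen on them. Same-numbered SBP2 and control libraries correlated at 0.0846 to 0.221 in inputs and 0.0988 to 0.139 in RIP, so these numbers were not taken as pairs, although each library correlated best with its own number. In RIP against control RIP the block gave 7 genes with SBP2 (5 without it) and 6 with SBP2(Se) (5). It called 11106 and 10314 of 17139 IDs there, in either direction. Without a low-count filter SBP2(Se) RIP against input gave 4 genes, beside 10900 of 35033 IDs. The enrichments with SBP2 and SBP2(Se) then gave 2 and 3, beside 7076 and 6145 of 35033 IDs. SBP2 RIP against control RIP gave 8, beside 10828 of 32488 IDs. Inputs with SBP2 and SBP2(Se) against control inputs gave 6 and 6, beside 681 and 329 of 31680 IDs. These totals include IDs with few counts. Library size alone gave 8 for SBP2 RIP against control RIP, beside 10842 of 17139 IDs. A fit over 18 libraries gave 4 for SBP2 inputs against control inputs, beside 702 of 17678 IDs. The cause of these shifts was not tested. Leaving out 1 replicate at a time gave 2 to 3, 2 to 2 and 5 to 6 genes for RIP against input with SBP2, with SBP2(Se) and in the control. It gave 1 to 2 and 1 to 1 for the enrichments, 4 to 7 and 4 to 7 for RIP against control RIP, and 0 to 6 and 0 to 4 for inputs against control inputs, each with SBP2 and then SBP2(Se). Over all IDs RIP against input then had 9395 to 9742, 9556 to 9954 and 11563 to 11814 calls, in the same order. The enrichments had 5750 to 6729 and 4916 to 5656 calls, and RIP against control RIP 9860 to 10313 and 9210 to 9484. Selenite comparisons gave 0 in every setting tried. Over all IDs, the block moved the calls between SBP2 and control inputs to 2734 from 146, between SBP2(Se) and control inputs to 1130 from 92, and between SBP2(Se) and SBP2 inputs to 37 from 1. No filter moved them to 681, 329 and 27, the DESeq2 test to 331, 206 and 3, and the fit over 18 libraries to 702, 359 and 3. Leaving out 1 replicate gave 21 to 737 calls with SBP2 and 23 to 134 with SBP2(Se). Library size alone moved the enriched IDs with SBP2 to 3007 of 7375 calls, from 3844 of 7045, and those with SBP2(Se) to 2670 of 6252, from 3416 of 5956 (2784 of 6181 with DESeq2 size factors). DDIT3 in RIP and in the enrichments, and PCK2, DDIT4 and PSAT1 in RIP, kept their direction and passed in every setting. No value that passed changed sign. Relative to TMM, library size alone shifted the median over all IDs by 0.18 (log2) in control RIP against input, by -0.15 and -0.13 in the enrichments with SBP2 and SBP2(Se), and by -0.12 in SBP2 RIP against control RIP. DESeq2 size factors shifted the first by 0.11 and the SBP2(Se) enrichment by -0.11. The low counts of ASNS limit its values most.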

Other observations

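The 10 genes together took 0.115% to 0.158% of the counts of a library in SBP2(Se) RIP, 0.123% to 0.138% in SBP2 RIP and 0.152% to 0.201% in control RIP. In inputs they took 0.127% to 0.146% with SBP2 and 0.119% to 0.148% with SBP2(Se), against 0.167% to 0.248% in the control. In both fractions the highest control share was that of replicate 3. Of the 10 genes, PHGDH held the most counts in each library.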
